A study of Arabidopsis thaliana with 8 samples.

Results

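In Arabidopsis endosperm, 308 of 34133 measured genes stood higher in seeds from ein2-5 x ein2-5 crosses than in seeds from Col-0 x Col-0 crosses, with both reciprocal hybrids in between. They were chosen from the deposited FPKM values (fragments scaled by transcript length and by the mapped fragments of the library) by a fixed rule with 3 parts. The mean over the 8 libraries had to be at least 10 FPKM, the lower ein2-5 x ein2-5 library had to reach 1.5 times the higher Col-0 x Col-0 library, and each hybrid's mean had to lie between the means of those crosses. Of 12236 genes with a mean of at least 10 FPKM, 386 (3.15%) met the part on the 2 outer crosses and 308 (2.52%) met all parts and were kept. They are called rising genes below for this rule and not for any test. The mirror image of the rule, with the crosses exchanged, was met by 35 genes (0.286%).

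The libraries were made from endosperm, the nourishing tissue of the seed, cut out by laser capture at 6 days after pollination. Col-0 is the wild type, and the ein2-5 line lacks working EIN2, the membrane protein that passes the ethylene signal from the receptors to the nucleus. There were 2 libraries from each of 4 crosses: the wild-type cross (Col-0 x Col-0), both hybrids (Col-0 x ein2-5, and its reciprocal ein2-5 x Col-0), and the mutant cross (ein2-5 x ein2-5). For all libraries, plants were kept at 22 °C with 16 h of light and 8 h of dark. Flowers were emasculated 44 to 48 h before pollination. The labels give no further treatment for any group. The labels do not tell which name stands for the mother, and the first one was read as hers. Endosperm receives 2 genomes from the mother and 1 from the father, so mutant copies then number 0 in the wild-type cross, 1 in Col-0 x ein2-5, 2 in ein2-5 x Col-0 and 3 in the mutant cross. Where a gene's values are listed below, they run from 0 to 3 copies, with library 1 before library 2. The seed coat of an ein2-5 mother is itself mutant. Between the hybrids, and between the mutant and the wild-type cross, copies in the endosperm and the genotype of the mother change together. They cannot be told apart in those comparisons. Crosses that share a mother differ in copies together with the genotype of the father. The labels do not say whether the 2 libraries of a cross came from separate plants.

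Ethylene is a gaseous hormone whose receptors hold the pathway off until they bind it, after which EIN2 is cleaved and its end part stabilises the transcription factor EIN3. Endosperm first divides without forming walls and later becomes cellular, starting near the embryo. During this time it secretes many small cysteine-rich peptides, builds and loosens cell walls, and meets the embryo's new cuticle, while the maternal seed coat around it makes flavonoids and tannins. Genes of each of these processes were among the rising genes, and 32 had no characterised product in the reference annotation.

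Depth, estimated from the steps of low FPKM values, ranged from 0.535 in Col-0 x Col-0 library 1 to 1.616 in ein2-5 x ein2-5 library 2, relative to Col-0 x ein2-5 library 1. Col-0 x Col-0 library 2, at 1.394, was deeper than ein2-5 x ein2-5 library 1, at 1.010. EIN2 itself had means of 45.3, 40.7, 24.2 and 21.7 FPKM in the crosses with 0, 1, 2 and 3 mutant copies. Endosperm markers were well measured, with 13 of 16 at 1 FPKM or more in each wild-type and hybrid library, while ESF1.1 was listed at 0 in all libraries. The endosperm markers summed to 1264 and 1074 FPKM with 0 mutant copies, 1308 and 1160 with 1, 1389 and 1149 with 2, and 1968 and 1411 with 3, and without the 3 rising genes among them to 1124 and 941, 1058 and 1006, 1177 and 966, and 1535 and 1097 FPKM. Seed coat markers were present too: 25 or 26 of 26 were above 0 in every library, and their summed level was 1021 and 981 FPKM with 0 mutant copies, 1218 and 1019 with 1, 1423 and 871 with 2, and 2029 and 1452 with 3. Without the 5 rising genes among them the sums were 714 and 689, 792 and 699, 935 and 584, and 1241 and 928 FPKM. With all markers, the endosperm and the seed coat sums were highest in both libraries of the mutant cross. Without the rising genes, which were chosen for high values there, this held for its library 1 alone. Its library 2 was then below ein2-5 x Col-0 library 1 for both tissues, and for endosperm also below Col-0 x Col-0 library 1. The endosperm and seed coat sums were higher in library 1 than in library 2 of every cross. The 17 embryo markers summed to between 597 and 702 FPKM, lowest in the ein2-5 x ein2-5 libraries. The part of captured seed coat in the values below was not tested, and in such bulk samples fewer cells of a type and less RNA per cell cannot be told apart.

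The rising genes differed strongly between the 2 libraries of each hybrid. For each gene, log2(FPKM + 1) was set against that of the Col-0 x Col-0 mean. The median over the 308 genes was 0.505 and 0.286 in the Col-0 x ein2-5 libraries, 0.746 and 0.143 in the ein2-5 x Col-0 libraries, and 1.254 and 1.044 in the mutant cross. Library 1 of ein2-5 x Col-0 therefore sat well above both Col-0 x ein2-5 libraries, and library 2 sat below both. Over all genes with a mean of at least 10 FPKM the corresponding medians were 0.02, 0.02, 0.00, -0.00, 0.03 and 0.11. In ein2-5 x Col-0, 248 rising genes (80.5%) were higher in library 1 than in library 2, against 50.8% of all genes with that mean. The share was 72.7% in Col-0 x ein2-5 (all genes 50%), 69.2% in ein2-5 x ein2-5 (all genes 42.8%) and 42.9% in Col-0 x Col-0 (all genes 34.5%). Only 69 rising genes (22.4%) had all 4 hybrid libraries strictly between the higher Col-0 x Col-0 and the lower ein2-5 x ein2-5 library.

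**Figure D1:**
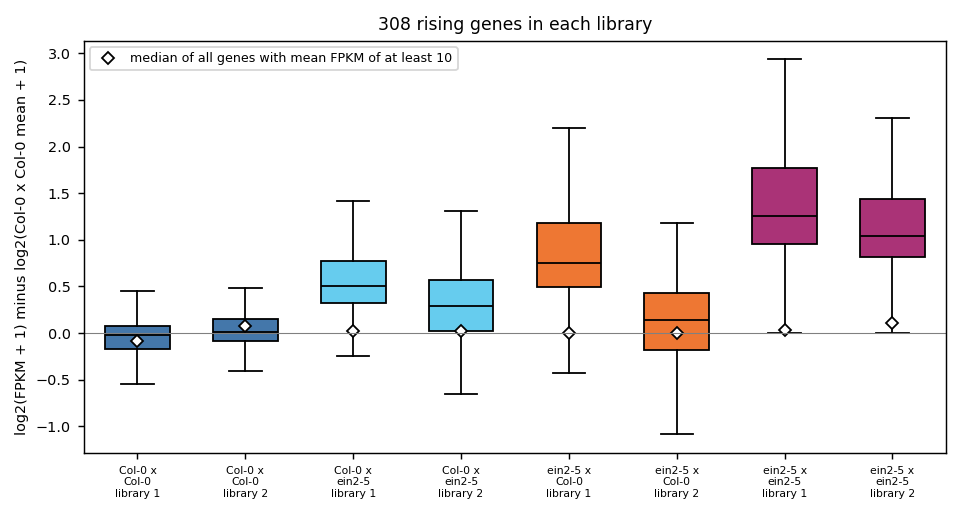
Change of the 308 rising genes in each library from the Col-0 x Col-0 mean, in log2(FPKM + 1). Boxes span the quartiles with the median as a line, whiskers reach the farthest value within 1.5 box lengths, and diamonds are medians of all genes with a mean of at least 10 FPKM; the ein2-5 x Col-0 libraries have medians of 0.75 and 0.14.

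Values that the rule itself used are given as a description. The ratio of the lower ein2-5 x ein2-5 library to the higher Col-0 x Col-0 library had a median of 1.83 over the 298 genes with a finite ratio above 0, and it was at least 2 in 93 and at least 3 in 19. The other 10 genes were listed at 0 in both Col-0 x Col-0 libraries, so that any ein2-5 x ein2-5 value met the fold threshold, and in 4 of these an ein2-5 x ein2-5 library was at 0 as well. The median of the mean FPKM was 23.6, with 26 genes at 100 FPKM or more. Just inside the threshold lay PLR1 at a ratio of 1.5010, AT3G05940 at 1.5012 and AT1G16445 at 1.5013, and just outside lay AT3G12860 at 1.4986, AT2G15740 at 1.4981 and AT5G66540 at 1.4978. Support by fragments was uneven: an estimated 263 rising genes had a median of at least 10 fragments per library, while 10 had no more than 3 fragments in their best library. In the fit over all genes, 280 of the 305 rising genes tested had an unadjusted limma p under 0.05 for the mutant against the wild-type cross (all genes 10.6%), and 0 passed Benjamini-Hochberg adjustment (all genes 0.0101%, lowest adjusted p among them 0.24, limma). The rule chose on that contrast, and nothing is read from these counts.

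Small cysteine-rich secreted peptides, a large class that includes the defensin-like proteins and the ECA1-like and SCR-like families, made up 29 of the 308 genes (9.42%) but 0.956% of genes with a mean of at least 10 FPKM. Put the other way, 29 of 117 such peptides at that mean were rising genes (24.8%), against 2.52% of all genes. Not all of the class went this way. Of 147 such peptides tested, 87 were higher in ein2-5 x ein2-5 than in Col-0 x Col-0, against 12155 of 19719 genes. The median log2 difference was 0.54 over these peptides and 0.12 over all genes. This group and the others made from annotated product names, and some genes named from them, were put together after the values were seen. LCR46 (AT5G48945), of the low-molecular-weight cysteine-rich family, measured 245 and 230 FPKM with 0 mutant copies, 406 and 344 with 1, 596 and 360 with 2, and 560 and 542 with 3. Both wild-type libraries were below every other library, and the highest value came from a hybrid. The defensin-like gene AT3G24510 measured 138 and 110, 198 and 120, 326 and 51.2, and 432 and 260 FPKM. Here ein2-5 x Col-0 held both the lowest library of all and one above an ein2-5 x ein2-5 library.

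That spread was shared by most of the peptides. In 26 of the 29, ein2-5 x Col-0 library 1 was above library 2, and in 18 library 2 was at or below the Col-0 x Col-0 mean. Their median log2 change from the Col-0 x Col-0 mean was 0.84 and 0.25 with 1 mutant copy, 1.57 and -0.04 with 2, and 2.05 and 1.54 with 3. LCR65 (AT1G73607), another low-molecular-weight cysteine-rich gene, illustrates it with 50.4 and 54.1, 96.8 and 52.1, 105 and 48.6, and 144 and 164 FPKM. SCRL6 (AT1G60985), named for likeness to the pollen determinant of self-incompatibility, had a ratio of 3.88 and measured 6.30 and 9.67, 10.10 and 11.9, 31.15 and 7.60, and 53.4 and 37.6 FPKM.

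Transcripts of this class are short, and a single fragment on a 400-nt transcript is worth 3.04 to 9.18 FPKM depending on the library. Among the 29, 14 had a median of at least 10 estimated fragments, and 11 were listed at 0 in at least 1 library. AT2G03931 and AT2G03933, neighbours on chromosome 2 that are 2687 bp apart, had exactly the same FPKM in 2 libraries. Reads of near-identical copies may have been split between them, which was not tested. Equal values alone do not show this. They also occurred, in 3 libraries each, for AT2G21350 with RAN4 and AT5G62627 with ATCG01060, which are not neighbours. AT2G03931 ranged from 0 in a library of the wild-type cross and of ein2-5 x Col-0 to 253 FPKM in the mutant cross, and its level is uncertain. Genes of all kinds with transcripts under 500 nt were rising genes more often (46 of 319, 14.4%) than genes of 500 to 1000 nt (3.16%), of 1000 to 2000 nt (2.18%) and of 2000 nt or more (1.73%). Within the shortest class the share was 24.8% for cysteine-rich peptides (26 of 105) and 9.35% for other genes (20 of 214).

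**Figure D2:**
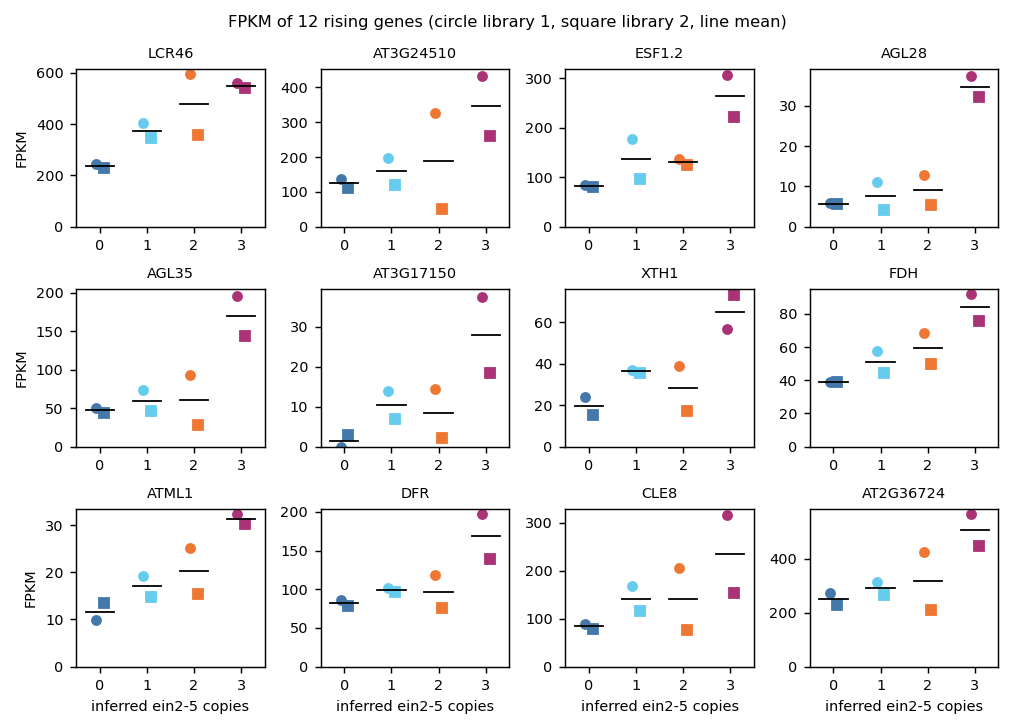
FPKM of 12 rising genes in each library (circles library 1, squares library 2) with the cross mean as a line, by the number of ein2-5 copies inferred with the first-named parent as mother. For AT3G24510 the ein2-5 x Col-0 libraries lie at 326 and 51.2 FPKM, whereas for ESF1.2 they lie at 137 and 125 FPKM.

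Among signals and regulators of the endosperm, the secreted peptides ESF1.2 and CLE8 were the most abundant. ESF1.2 (AT1G10745), a maternally expressed cysteine-rich peptide that acts on the young embryo's suspensor, measured 83.5 and 80.2 FPKM with 0 mutant copies, 177 and 97.5 with 1, 137 and 125 with 2, and 307 and 221 with 3. All 4 hybrid libraries lay between those of the other crosses. Its near-identical relative ESF1.1 was listed at 0 throughout, so the value may hold reads of both. CLE8 (AT1G67775), a peptide ligand made in young embryo and endosperm, measured 88.4 and 79.2, 168 and 115, 205 and 76.9, and 317 and 153 FPKM, with an ein2-5 x Col-0 library below both wild-type libraries.

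Type I MADS-box transcription factors, many of which are active in early endosperm, supplied 4 rising genes of 12 with a mean of at least 10 FPKM. AGL28 (AT1G01530) had one of the highest ratios, 5.46, and measured 5.89 and 5.65, 11.02 and 4.16, 13.0 and 5.33, and 37.4 and 32.2 FPKM. Its hybrid means lay at 6.28% and 11.6% of the way from the Col-0 x Col-0 mean to the ein2-5 x ein2-5 mean, close to the wild type. AGL35 (AT5G26630) measured 50.3 and 44.2, 73.1 and 45.7, 92.9 and 28.2, and 196 and 144 FPKM, and AGL40 (AT4G36590) 62.4 and 47.1, 72.2 and 54.1, 107 and 40.1, and 191 and 133 FPKM. In both, library 2 of ein2-5 x Col-0 was the lowest of all 8. AGL23, needed for female gametophyte development, was more even, at 3.41 and 9.15, 10.9 and 9.62, 14.98 and 12.3, and 27.1 and 18.0 FPKM. Its ein2-5 x Col-0 mean was above its Col-0 x ein2-5 mean.

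The imprinted homeodomain gene FWA (AT4G25530), expressed from maternal copies in endosperm, measured 33.3 and 28.3, 40.5 and 30.8, 47.0 and 34.0, and 72.5 and 52.9 FPKM. It was the 1 rising gene among 9 imprinted and PRC2 genes with a mean of at least 10 FPKM. NCED6 (AT3G24220), which makes the precursor of abscisic acid in endosperm, measured 23.5 and 24.7, 32.2 and 26.0, 28.6 and 23.4, and 53.6 and 39.9 FPKM, so its ein2-5 x Col-0 mean stayed near the wild type (8.64% of the span). GA20OX5 (AT1G44090), an enzyme of gibberellin synthesis, had means of 9.24 ± 1.34, 15.6 ± 4.34, 15.2 ± 3.05 and 52.7 ± 22.5 FPKM (SD, n = 2). ZF2 (AT3G19580), a zinc-finger repressor, was similar in shape at 12.2 ± 1.69, 17.5 ± 5.19, 17.8 ± 4.81 and 55.6 ± 14.2 FPKM. For both genes the hybrid means lay at 12.2% to 14.6% of the span.

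Enzymes and structural proteins of the cell wall gave 19 rising genes of 174 with a mean of at least 10 FPKM (10.9%). Of 336 wall genes tested, 212 were higher in ein2-5 x ein2-5 than in Col-0 x Col-0, against 12155 of 19719 genes. The median log2 difference was 0.19 over these wall genes and 0.12 over all genes. The highest ratio of all, 6.47, belonged to AT3G17150, a predicted inhibitor of invertase or pectin methylesterase, at 0 and 2.87, 14.0 and 7.03, 14.4 and 2.25, and 37.6 and 18.6 FPKM. It rests on a median of 5.23 estimated fragments. Better supported was BXL3, a beta-xylosidase, with 52.2 fragments and 14.0 and 8.60, 23.2 and 11.6, 28.1 and 8.46, and 70.5 and 36.2 FPKM. The wall-loosening expansin EXPA23 measured 44.7 and 40.8, 58.3 and 40.8, 78.4 and 20.2, and 173 and 100.9 FPKM, and in both genes ein2-5 x Col-0 library 2 was the lowest of all.

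Other wall genes had different hybrid values. XTH1, which cuts and rejoins xyloglucan, measured 23.7 and 15.5, 36.8 and 35.7, 39.1 and 17.2, and 56.5 and 73.0 FPKM. The cellulose synthase CESA10 had means of 9.33 ± 0.325, 10.3 ± 1.09, 10.9 ± 7.67 and 19.2 ± 1.61 FPKM (SD, n = 2). The arabinose-releasing enzymes ASD1 and ASD2 lay nearer the middle, with ein2-5 x Col-0 means at 71.2% and 51.4% of the span and Col-0 x ein2-5 means at 50.1% and 36.2%. GATL7, a galacturonosyltransferase-like protein, measured 45.5 and 52.7, 65.9 and 70.2, 82.5 and 54.4, and 87.0 and 87.1 FPKM, with every hybrid library between those of the other crosses. Over the 19 genes, 17 were higher in library 1 than in library 2 of ein2-5 x Col-0.

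Lipid enzymes of cutin, wax and long-chain fatty acids gave 8 rising genes of 31 (25.8%), and class IV homeodomain-leucine zipper factors, which govern epidermal identity, gave 4 of 12 (33.3%). Of those tested, 50 of 80 lipid enzymes and 10 of 16 homeodomain factors were higher in ein2-5 x ein2-5 than in Col-0 x Col-0. Over all genes it was 12155 of 19719. The median log2 differences were 0.20 and 0.29, against 0.12 over all genes. FDH (AT2G26250), a ketoacyl-CoA synthase of the epidermis, measured 39.2 and 38.9, 57.7 and 44.6, 68.7 and 49.8, and 92.2 and 76.0 FPKM. The groups overlapped only between the hybrids. GPAT4 (AT1G01610), an acyltransferase of cutin synthesis, measured 6.63 and 6.18, 8.62 and 6.69, 6.78 and 7.44, and 20.1 and 21.3 FPKM, so that its hybrids stayed close to the wild type. CYP86A2 (AT4G00360), a cytochrome P450 that oxidises fatty acids for cutin, measured 75.4 and 64.8, 83.3 and 65.6, 114 and 59.0, and 139 and 115 FPKM. Its ein2-5 x Col-0 libraries fell on opposite sides of the wild-type values.

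ATML1 (AT4G21750), a master factor of epidermal identity and also an embryo marker, measured 9.78 and 13.6, 19.2 and 14.9, 25.1 and 15.4, and 32.3 and 30.2 FPKM, and its 4 means followed the number of copies. HDG2 (AT1G05230), of the same class, had means of 11.1 ± 1.28, 13.5 ± 1.88, 13.0 ± 0.68 and 19.9 ± 0.373 FPKM (SD, n = 2). HDG8 (AT3G03260) measured 69.2 and 37.7, 77.6 and 44.3, 77.4 and 48.4, and 126 and 111 FPKM, with library 1 above library 2 in every cross. Factors of this class bind the L1 box, a short element of epidermal promoters, which makes these promoters the ones to look at. The 250 bases before the annotated start were read from the TAIR10.1 genome (RefSeq). Among the rising genes, 3 of the 8 cutin and wax genes and 1 of the 4 homeodomain genes held the letters TAAATGNA there, on either strand. ATML1, HDG8, FWA and GPAT4 did not. The promoters with a match are shown 5′ to 3′ on the strand of the gene, with the matching letters in capitals.
FDH, chr2:11173279-11173528, minus strand: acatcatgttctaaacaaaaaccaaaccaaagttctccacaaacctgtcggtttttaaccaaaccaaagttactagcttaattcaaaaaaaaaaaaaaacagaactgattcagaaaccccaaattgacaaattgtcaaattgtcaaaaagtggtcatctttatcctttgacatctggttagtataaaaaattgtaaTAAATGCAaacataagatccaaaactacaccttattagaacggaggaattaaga
CYP86A2, chr4:160393-160642, plus strand: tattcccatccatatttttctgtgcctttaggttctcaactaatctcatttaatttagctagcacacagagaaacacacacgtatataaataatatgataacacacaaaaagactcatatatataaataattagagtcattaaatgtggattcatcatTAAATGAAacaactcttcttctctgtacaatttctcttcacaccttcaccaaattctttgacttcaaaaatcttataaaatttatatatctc
AT1G29660, chr1:10371425-10371674, plus strand: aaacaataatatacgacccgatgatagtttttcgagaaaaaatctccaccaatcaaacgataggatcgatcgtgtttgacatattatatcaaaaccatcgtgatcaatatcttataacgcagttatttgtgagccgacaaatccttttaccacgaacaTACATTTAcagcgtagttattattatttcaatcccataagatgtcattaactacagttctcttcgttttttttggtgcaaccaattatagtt
HDG2, chr1:1518901-1519150, minus strand: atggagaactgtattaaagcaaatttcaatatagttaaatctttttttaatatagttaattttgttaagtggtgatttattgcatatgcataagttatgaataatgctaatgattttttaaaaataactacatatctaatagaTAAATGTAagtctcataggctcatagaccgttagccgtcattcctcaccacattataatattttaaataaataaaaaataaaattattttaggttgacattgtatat

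The match ends 47 bases before the start in FDH, 85 in CYP86A2, 85 in AT1G29660, a GDSL-type lipase in which it lies on the opposite strand, and 100 in HDG2. The known element has a pyrimidine at the N, which CYP86A2 does not have. Of 305 rising genes with a promoter in the reference, 41 (13.4%) held the letters, against 9.76% of 12127 genes with a mean of at least 10 FPKM. The letters were not particular to the epidermal groups. They were also in 3 of 6 rising proteases, 5 of 29 cysteine-rich peptides and 1 of 4 type I MADS-box genes. None were found in the 16 ubiquitin-ligase proteins, the 6 RNA helicases and nucleolar proteins or the 5 flavonoid genes. The letters ATGNANCT, close to the site of EIN3, were in 11.8% of rising genes and 11.7% of those genes, and GCCGCC, the GCC box of ethylene response factors, in 2.3% and 2.01%. CACGTG, the G-box, was in 7.54% and 7.77%, ACCNACC, an AC element of phenylpropanoid genes, in 5.57% and 6.19%, and the CArG box of MADS factors in 3.28% and 2.9%. Both strands were searched, and TAAATGNA and ATGNANCT can overlap in the letters ATGNA. A match is a description of the sequence and not of a bound site.

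Flavonoid and tannin genes, active in the seed coat, gave 5 rising genes of 12 with a mean of at least 10 FPKM. TT7 (AT5G07990), the flavonoid hydroxylase, measured 13.4 and 14.0, 21.6 and 12.2, 33.3 and 11.01, and 45.3 and 32.1 FPKM. TT5 (AT3G55120), chalcone isomerase, measured 13.2 and 18.6, 27.0 and 13.5, 24.2 and 18.6, and 65.2 and 34.9 FPKM. In the pair, each hybrid had a library at about the wild-type level. DFR, LDOX and TT19, which act later in the pathway, had means of 99.0 ± 4.56, 127 ± 24.3 and 110 ± 29.8 FPKM with 1 mutant copy, and with 2 of 96.9 ± 29.7, 127 ± 50.2 and 120 ± 42.4 FPKM (SD, n = 2). For these later enzymes the hybrid means differed by far less than the spread within ein2-5 x Col-0. 4CL3 (AT1G65060), which feeds the pathway with activated coumarate, measured 3.66 and 9.83, 11.8 and 4.31, 21.6 and 7.73, and 22.8 and 18.2 FPKM. The median log2 change of the 5 genes, 0.58 and -0.04 with 1 mutant copy and 0.71 and -0.07 with 2, was high in library 1 and near 0 in library 2 of each hybrid. The summed level of the seed coat markers given above was likewise higher in library 1 of each hybrid. Of 4 mucilage genes with a mean of at least 10 FPKM 0 were rising genes, a list too short for that count to be read.

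In 2 further groups the medians differed less between the libraries of a hybrid than they did over all rising genes. The 6 rising RNA helicases and nucleolar proteins (of 44, 13.6%) had median log2 changes of 0.36 and 0.26 with 1 mutant copy and 0.24 and 0.36 with 2, and in each of the 6 ein2-5 x Col-0 library 2 was the higher one. AT1G23280, a MAK16-like protein of ribosome assembly, measured 21.1 and 22.0, 35.8 and 28.8, 28.4 and 40.4, and 42.6 and 42.5 FPKM. RING, F-box and other ubiquitin-ligase proteins, 16 of 387 (4.13%), had median log2 changes of 0.40 and 0.54 with 1 mutant copy and 0.50 and 0.20 with 2, with library 2 the higher one in Col-0 x ein2-5 and library 1 in ein2-5 x Col-0. Of the 16, 12 were higher in library 1 than in library 2 of ein2-5 x Col-0, and in 5 that library 2 was at or below the Col-0 x Col-0 mean. Another gene of this group to treat with care, AT1G35183, was listed at 0 in 5 libraries. It was at 997, 987 and 682 FPKM in Col-0 x ein2-5 library 1 and both ein2-5 x ein2-5 libraries. A gene listed at 0 beside such levels may be a failed estimate, and it is given for its place among the most abundant members alone.

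**Figure D3:**
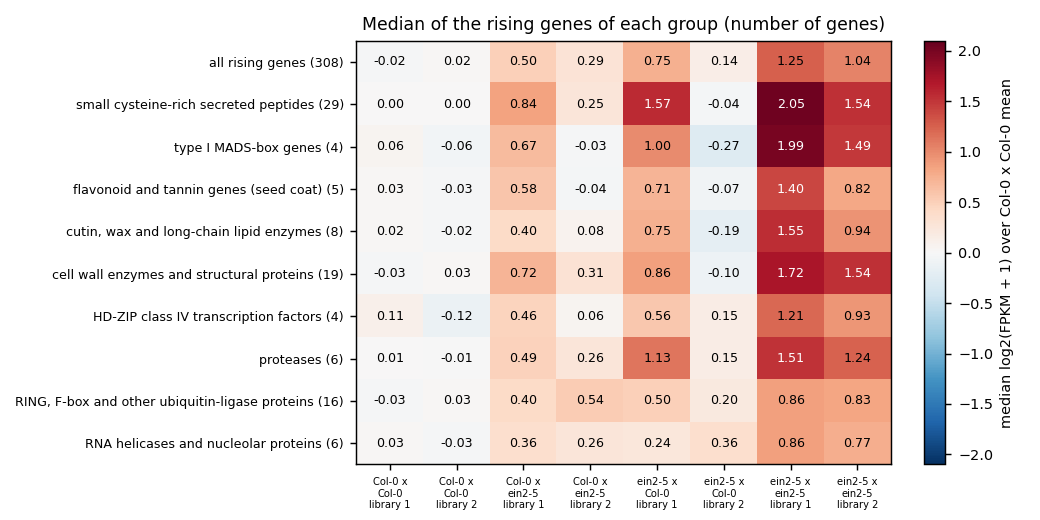
Median change of the rising genes of each group from the Col-0 x Col-0 mean, in log2(FPKM + 1), by library, with the number of genes in brackets. Small cysteine-rich peptides read 1.57 and -0.04 in the ein2-5 x Col-0 libraries, and RNA helicases and nucleolar proteins 0.24 and 0.36.

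Of 15 genes of ethylene perception and signalling with a mean of at least 10 FPKM, 0 were rising genes. The share over all genes, 2.52%, gives lists of this length or shorter fewer than 1 rising gene, so nothing is read from the absence. For the same list, the 17 genes tested had a median log2 difference of 0.05 for ein2-5 x ein2-5 minus Col-0 x Col-0, against 0.12 over all genes. Only 2 ethylene-responsive genes reached that mean, and neither was a rising gene. The lists of cell cycle genes (11), DNA replication genes (8), storage proteins and oleosins (5), and sugar transport and cleavage genes (3) also had 0 rising genes among those with that mean, and are too short for that count to be read.

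Both hybrids lay nearer to the wild type than to ein2-5 x ein2-5 for most rising genes. Scaled from 0% at the Col-0 x Col-0 mean to 100% at the ein2-5 x ein2-5 mean, the bounds that the rule imposes, the median position was 24.9% in Col-0 x ein2-5 (quartiles 13.5% and 41%) and 31.2% in ein2-5 x Col-0 (18.5% and 51.4%). In 202 genes both hybrids were under 50%, and in 24 both were at 50% or above. Taken library by library, the median position was 31.3% and 16.3% with 1 mutant copy and 52.1% and 7.01% with 2. In ein2-5 x Col-0 library 2, 124 of the 308 genes were at or below the Col-0 x Col-0 mean, against 15 in library 1. The difference of the hybrids' medians was therefore smaller than the difference between libraries of either hybrid.

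**Figure D4:**
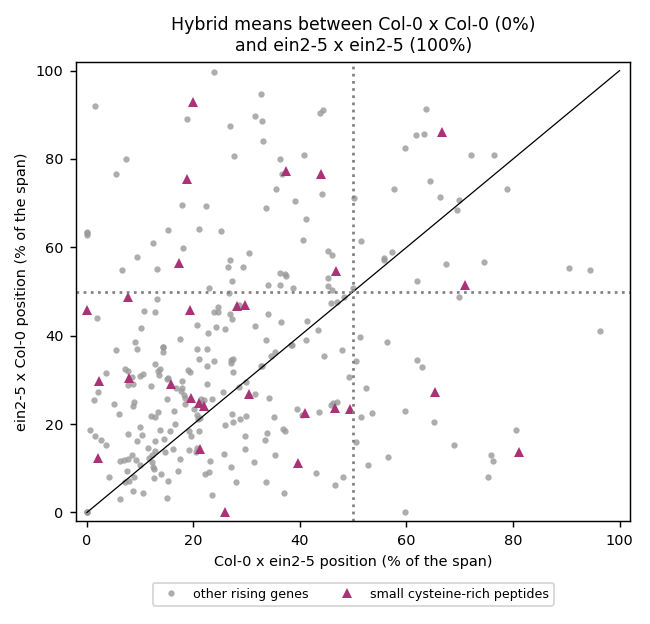
Position of the Col-0 x ein2-5 mean (horizontal) and the ein2-5 x Col-0 mean (vertical) of each rising gene, in percent of the span from the Col-0 x Col-0 mean to the ein2-5 x ein2-5 mean; the diagonal marks equal positions and dotted lines 50%. Triangles are small cysteine-rich peptides, and 202 of 308 genes lie under 50% on both axes.

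Whether 2 mutant copies gave higher values than 1 is the comparison of ein2-5 x Col-0 with Col-0 x ein2-5, the only one between crosses whose direction the rule left free, although it bounded its size. The ein2-5 x Col-0 mean was the higher one in 201 rising genes (65.3%), against 47.4% of all genes with a mean of at least 10 FPKM. The 4 means followed the number of copies in 197. That count adds no further result, because the rule fixed all of this order except the order of the hybrids. The majority with a higher ein2-5 x Col-0 mean depended on single libraries. Without ein2-5 x Col-0 library 1 the count fell to 72 of 308 (23.4%, all genes 44.6%), without library 2 it was 237 (76.9%), and without Col-0 x ein2-5 library 2 it was 154 (50%, all genes 48%). Both ein2-5 x Col-0 libraries were above both Col-0 x ein2-5 libraries in 35 of 308 rising genes, against 2131 of 12236 genes with that mean (17.4%). The reverse held in 20 of 308, against 2630 of 12236 (21.5%). Each was a smaller share than over all genes. Of 305 rising genes tested by limma, 0 passed Benjamini-Hochberg adjustment (0% of 19719 genes tested), and 8 (2.62%) had an unadjusted p under 0.05, against 3.02% of all genes. These counts also depended on single libraries. Without ein2-5 x Col-0 library 1, 46 rising genes (15.1%, all genes 3.6%) had an unadjusted p under 0.05 and 0 passed adjustment (limma). Without library 2 of that cross, 41 (13.4%, all genes 3.29%) did and 3 passed adjustment, and without Col-0 x ein2-5 library 2, 7 (2.3%, all genes 1.15%) did and 1 passed (limma). With all libraries, of the 8, 6 were higher in ein2-5 x Col-0 (all genes 1.13%) and 2 in Col-0 x ein2-5 (all genes 1.89%). The median log2 difference was 0.04 over the rising genes and -0.02 over all genes, and over the rising genes it was -0.29 without ein2-5 x Col-0 library 1, 0.38 without library 2 and -0.08 without Col-0 x ein2-5 library 2.

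**Figure D5:**
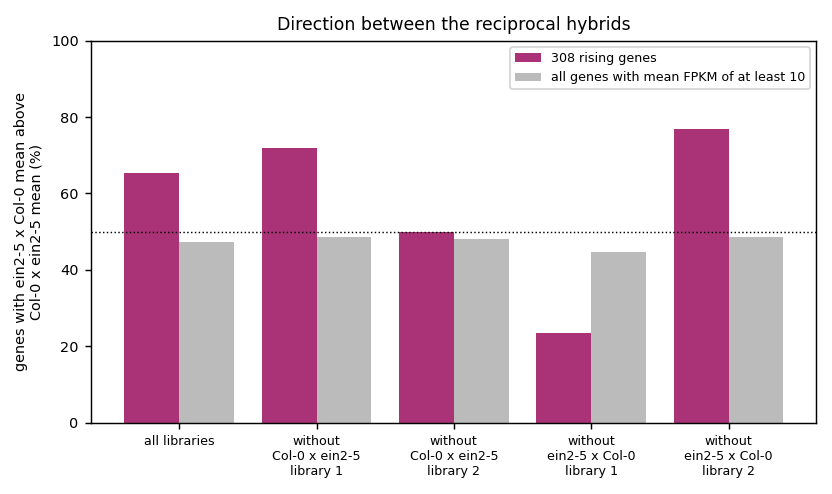
Share of genes whose ein2-5 x Col-0 mean was above their Col-0 x ein2-5 mean, with all libraries and without each hybrid library in turn, for the 308 rising genes and for all genes with a mean of at least 10 FPKM. The share of rising genes is 65.3% with all libraries, 23.4% without ein2-5 x Col-0 library 1 and 50% without Col-0 x ein2-5 library 2.

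The 5 genes with the smallest unadjusted p and higher values in ein2-5 x Col-0 are given as a description, since they were chosen for that difference among genes already higher in the mutant than in the wild-type cross. AT4G04985, an aspartyl protease of the eukaryotic type, measured 12.4 and 9.52, 9.94 and 14.6, 23.8 and 26.2, and 26.2 and 30.8 FPKM. The difference between hybrids was 0.99 ± 0.25 (log2, SE), with an unadjusted p of 0.0048 and an adjusted p of 1 (limma), and the gene had a median of 5.56 estimated fragments. AT2G23690, an uncharacterised plant gene annotated as a transcriptional regulator, measured 9.26 and 10.7, 12.4 and 14.2, 28.0 and 19.6, and 27.0 and 20.7 FPKM, and AT1G11175, a non-coding RNA, 10.8 and 8.31, 13.0 and 14.0, 20.8 and 21.2, and 20.1 and 23.3 FPKM. In each of these genes both ein2-5 x Col-0 libraries lay above both Col-0 x ein2-5 libraries. AT3G28990 (0.91 ± 0.27) and AT3G18880 (0.61 ± 0.24) were the others, also with an adjusted p of 1 (limma).

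The 5 genes chosen in the same way for higher values in Col-0 x ein2-5 are likewise a description. NPC2 (AT2G26870), a phospholipase C that cleaves membrane lipids, measured 10.7 and 17.3, 25.9 and 25.3, 16.5 and 16.9, and 29.0 and 27.7 FPKM. AT2G16360, a ribosomal protein S25 gene, measured 30.8 and 23.7, 49.4 and 43.5, 33.8 and 24.8, and 54.3 and 51.0 FPKM, on a median of 6.05 estimated fragments. In both genes the Col-0 x ein2-5 libraries lay above the ein2-5 x Col-0 libraries. The differences between hybrids were -0.59 ± 0.24 for NPC2 and -0.66 ± 0.21 for AT2G16360 (log2, SE), each with an adjusted p of 1 (limma). AT1G76290, AT1G30660 and AT2G03931 followed, at -0.44 ± 0.19, -0.79 ± 0.38 and -4.01 ± 2.02, also with an adjusted p of 1 (limma).

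The rising genes were spread over the genome. Chromosomes 1 to 5 held 26.3%, 18.8%, 19.2%, 14.3% and 20.5% of them, against 25.3%, 15.1%, 19.9%, 14.9% and 23.8% of genes with a mean of at least 10 FPKM. Genes with a mean of at least 10 FPKM formed 5842 pairs next to each other in the annotation. In 9 pairs both were rising genes, and 0 of these 9 pairs overlapped. They include AT3G24210 with NCED6, AT4G36580 with AGL40, and CYP79A2 with CHIL, a helper of flavonoid synthesis.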

How the data were processed

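The FPKM values, deposited by the authors as 1 table of 34133 genes by 8 libraries with 0 unused columns, were made on TAIR10 with TopHat2 2.1.1, SAMtools 1.5 and Cufflinks 2.2.1, per the submitters' processing notes; options, read counts and whether strand was kept are not given in the sources used here. FPKM depends on annotated length and, for short transcripts, on Cufflinks' length correction.

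Depth was estimated from genes whose low values step in units of 1 fragment (up to 8 fragments, tolerance 0.06), and fragments of other genes from the 101 step genes nearest in length. These depths cover counting error only.

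limma 3.58.1 in R 4.3.3 fitted log2(FPKM + 1), which understates changes of low genes, for 19719 genes with at least 1 FPKM in at least 2 libraries: means of the 4 crosses, all libraries sharing the spread, eBayes with a variance trend, two-sided, Benjamini-Hochberg over all genes, called at 0.05. P-values measure the spread between these libraries, which may be technical.

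Members, lists and tests were chosen with earlier results of these data known. Named genes were the 15 with the highest ratio, the 15 with the highest mean, every member in a list, the 5 per direction with the smallest p between hybrids, and 3 on either side of the threshold. Symbols, products, transcript lengths and promoters came from TAIR10.1, which held 305 of the 308 genes. Genes that met the rule but are left out by its terms are not reported here. Alternatives changed the pseudocount, filter, scaling, variance trend, replicate block, rule thresholds and libraries.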

Additional observations from a re-analysis of the deposited data

How the results depend on the processing

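Depth limits the short transcripts: 45 rising genes had a median under 10 estimated fragments. The number of rising genes was 716 at the lower fold threshold tried, 103 at a fold of 2, 478 at a mean of at least 5 FPKM, 176 at a mean of at least 20, 204 after median-ratio scaling (203 of the 308 among them) and 191 after quantile normalization (177 among them); without single libraries it ranged from 194 to 1191, lowest without ein2-5 x Col-0 library 1 and highest without Col-0 x Col-0 library 2. Small cysteine-rich peptides numbered 29, 20 to 34 under the rule's other thresholds and scalings and 13 to 38 without single libraries, 13 without ein2-5 x Col-0 library 1. Quantile normalization moved the median of all genes between ein2-5 x ein2-5 and Col-0 x Col-0 from 0.12 to -0.03 and that of the rising genes from 1.21 to 1.06. Genes called between the hybrids numbered 0, against 1 with a pseudocount of 0.1, 4 without the variance trend, 0 with the replicate block and 0 to 5 without single libraries. Between ein2-5 x ein2-5 and Col-0 x Col-0 they numbered 2, against 0 with a pseudocount of 0.1, 0 at a mean of at least 10 FPKM, 4 after median-ratio scaling, 11 without the variance trend, 0 with the replicate block and 0 to 33 without single libraries (33 without Col-0 x Col-0 library 2). Where an arm was left with 1 library, it was assumed to vary like the other crosses. The labels do not say what the replicate number stands for, and over the genes tested the deviations of libraries with the same number correlated at 0.00866 to 0.136 between crosses, so the number was not taken to pair them. The median position moved by less than the SD of the library medians under every setting run, but that SD is wide. It comes from the same 2 libraries of the hybrid, so leaving 1 of them out could hardly exceed it, and nothing is read from this. Without single libraries the median position ranged from 16.3% to 31.3% in Col-0 x ein2-5 and from 7.01% to 52.1% in ein2-5 x Col-0. Rising genes with a higher ein2-5 x Col-0 mean numbered 201, 211 under either scaling, 173 of 263 with at least 10 fragments, and 72 to 237 without single hybrid libraries; at 72, without ein2-5 x Col-0 library 1, the direction turned. These alternatives for the peptides and for the direction between hybrids were chosen after seeing the data. The 10 genes named for the hybrid contrast kept their direction in each of 160 alternatives. They were chosen for that contrast, so nothing is read from this count. Changes of the filter, variance trend, replicate block or libraries of the outer crosses also cannot move their estimates. The causes of the shifts given above were not tested.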
